A study of Mus musculus with 10 samples.

Results

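The genes described here are the chemokines and chemokine receptors of mouse liver, measured by poly(A) RNA-seq in hepatocyte H3.3 knockout and control mice. Members were taken by symbol (Ccl, Cxcl, Xcl1 and Cx3cl1 ligands, Ccr, Cxcr, Xcr1, Cx3cr1 and Ackr receptors) with at least 10 counts summed over the 10 libraries, which gave 49 genes out of 22449 that passed the same minimum. They were 28 ligands, 17 signalling receptors and 4 atypical receptors. All 10 animals were male, injected at 6 months of age and sampled 3 weeks later. The H3.3 KO group (n = 4) had floxed alleles of both H3.3 genes (H3f3a fl/fl, H3f3b fl/fl) on C57BL/6 and received AAV8-Tbg-Cre, in which the thyroxine-binding globulin promoter restricts Cre to hepatocytes, so other liver cells kept both genes. The WT Cre controls (n = 3) were wildtype mice given the same Cre virus, and the MCS controls (n = 3) were floxed mice given AAV8-Tbg-MCS, which carries no Cre. One label field names a HIRA fl/fl genotype for the floxed animals, and groups were taken from the sample titles, which name the H3.3 genes. The 6 control libraries could be told apart only by the number in the column name, so values for 1 kind of control rest on that match and values for all 6 controls do not.

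Chemokines are small secreted proteins that steer leukocytes through G protein-coupled receptors on the leukocyte surface. CC and CXC ligands are named for the spacing of their first cysteines, and most ligands bind several receptors while most receptors bind several ligands. In liver, Ccl2 acting on Ccr2 draws monocytes out of blood, Cxcl1 and Cxcl2 act on neutrophils through Cxcr2, Cxcl9 and Cxcl10 act on T and NK cells through Cxcr3, and Cxcl12 holds Cxcr4-bearing cells in place. Atypical receptors bind chemokines without coupling to G proteins and remove or transport them.

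A further 18 identifiers that matched by symbol fell below the minimum. Of these 12 had no count in any library and 6 had 1 to 9 counts. Just inside the minimum was Ccl19 with 10 counts and just outside it was Ccl17 with 9. Ccl21a, Ccl21b, Ccl21c, Ccl19 and Ccl27a exist as near-identical copies in this genome. Ccl21a had 0 counts in each library, yet the FPKM table lists its reference copy (ENSMUSG00000094686.1) at 0.103 to 1.15 in the controls and 0.561 to 1.05 in the KO livers. Reads from these copies therefore depend on the counting, and Ccl19 and Ccl27a values are uncertain. Ccl20 was at 0 counts and blank in the FPKM table in all 10 libraries. Among the members, 8 had under 10 counts over the 6 controls (Ccl7, Ccl11, Ccl12, Ccl19, Ccr3, Ccr4, Ccr6 and Ccr8), so that they reached the minimum only with the KO livers, and 3 had under 10 over the 4 KO livers (Ccl19, Ccl28 and Cxcl5).

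Total counts per library ran from 14998426 to 26096141, lowest in KO 1. H3f3a stood at 59.9 to 63.7 CPM (counts relative to the TMM-scaled library size) in the controls and 15.97 to 19.0 in the KO livers, and H3f3b at 136 to 204 and 39.8 to 56.7, so no library went against its label. In this family 2 libraries stood apart from the rest of their group. KO 1 was the lowest KO library for 28 of the 30 upregulated members described below and lay within the control range for 14 of them, with H3f3a at 16.03 CPM, as low as in the other KO livers. MCS control 3 held 3733 counts of Cxcl1 where the other controls held 31 to 123. Where leaving out either changed a call, or both moved a called fold by over 1.5 times, the values without them are given.

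The promoters below belong to neighbouring ligand genes and to Cxcl10, which had the highest fold change of the interferon-inducible ligands. Ccl9 and Ccl6 lie side by side and moved in opposite directions. Cxcl1 and Cxcl2 also lie side by side, and with all libraries included only Cxcl2 was upregulated. Without the control library highest for Cxcl1, both rose, with log2 fold changes of 2.06 for Cxcl1 and 4.35 for Cxcl2. Each promoter is the 250 bases before the RefSeq start (GRCm38.p6, gene strand, 5′ to 3′), shortened where the GENCODE model starts earlier, by 4 bases for Cxcl1 and 28 for Cxcl2. Capitals mark matches on either strand to a kappaB element, an interferon-stimulated response element core (GAAANNGAAA), a gamma-activated site (TTCNNNGAA) or an AP-1 element (TGANTCA). The promoters were read from chr11:83578637-83578886 (minus strand, Ccl9), chr11:83593088-83593337 (minus, Ccl6), chr5:92348890-92349139 (minus, Cxcl10), chr5:90890995-90891240 (plus, Cxcl1) and chr5:90903649-90903870 (plus, Cxcl2). The kappaB form searched opens with GGG, closes with CC and allows only C or T in the bases just before CC. The gggaaattcc of the Cxcl10 promoter, with an A there, is unmarked, so the capitals need not cover every kappaB site.
Ccl9: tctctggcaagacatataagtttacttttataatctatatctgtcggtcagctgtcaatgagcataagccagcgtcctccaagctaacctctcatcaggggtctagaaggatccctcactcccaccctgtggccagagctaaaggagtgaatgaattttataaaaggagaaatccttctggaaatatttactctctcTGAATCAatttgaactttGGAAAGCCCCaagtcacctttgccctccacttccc
Ccl6: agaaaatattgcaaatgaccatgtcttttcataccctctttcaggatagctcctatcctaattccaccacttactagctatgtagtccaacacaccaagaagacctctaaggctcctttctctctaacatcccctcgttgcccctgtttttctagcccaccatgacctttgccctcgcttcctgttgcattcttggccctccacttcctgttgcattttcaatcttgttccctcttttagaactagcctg
Cxcl10: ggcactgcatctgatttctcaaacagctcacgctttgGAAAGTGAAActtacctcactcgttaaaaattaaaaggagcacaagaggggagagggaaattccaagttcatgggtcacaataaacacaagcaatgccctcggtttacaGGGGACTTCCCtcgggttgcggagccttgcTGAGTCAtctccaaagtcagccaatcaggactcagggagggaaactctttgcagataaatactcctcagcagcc
Cxcl1: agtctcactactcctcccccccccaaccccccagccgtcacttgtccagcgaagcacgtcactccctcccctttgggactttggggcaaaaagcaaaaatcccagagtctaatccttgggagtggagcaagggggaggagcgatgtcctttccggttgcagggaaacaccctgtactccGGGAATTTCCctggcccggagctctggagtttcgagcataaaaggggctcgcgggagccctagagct
Cxcl2: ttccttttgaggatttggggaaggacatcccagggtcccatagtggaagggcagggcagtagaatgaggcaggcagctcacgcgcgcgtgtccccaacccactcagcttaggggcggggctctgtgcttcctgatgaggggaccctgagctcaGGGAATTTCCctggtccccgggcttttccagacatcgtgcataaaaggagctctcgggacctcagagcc

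Windows were found for 36 of the 49 members (40 windows). The searched form of the kappaB element, which NF-kB binds, was in 7 of the 40 member windows (17.5%) and in 5.00% of all 32841 promoter windows of that length. Those 7 belonged to Ackr2, Ccl9, Ccr3, Ccr6, Cxcl1, Cxcl2 and Cxcl10, and the Cxcl10 window held 2 overlapping matches besides an AP-1 and an interferon-response match. AP-1 matches were in 12.5% of member windows and 6.75% of all, interferon-response cores in 7.50% and 2.98%, and gamma-activated sites in 5.00% and 7.02%. The share with a kappaB match was 14.3% in the 21 windows of upregulated members and 21.1% in the other 19. These shares rest on 3 and 4 windows, too few to compare. Of the 30 upregulated members described below 21 had a window, and Ccl25, Ccl27a and Ccr6 count more than once in the other 19. Ccl9, which fell, has a kappaB and an AP-1 match, and the printed window of Ccl6, which rose, has neither.

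Most of the family was higher in the KO livers. At an adjusted p under 0.05 and a log2 fold change over 1 in either direction (edgeR's quasi-likelihood test, Benjamini-Hochberg over all 22449 genes), 30 of the 49 members (61.2%) were upregulated and 2 (4.08%) downregulated against the 6 controls. Of the 30, Ccl7, Ccl12, Ccr3, Ccr4 and Ccr8 reached the count minimum only with the KO livers, and of the 41 members with 10 or more counts over the controls 25 were upregulated and 2 downregulated. Ccl28, 1 of the 2 downregulated, had 7 counts over the KO livers and reached the minimum only with the controls, where it was high. Counts of members by role, pair or separation include those 5 and Ccl28 and are descriptions. The same rule called 12.9% of all genes tested up and 5.79% down. The median log2 fold change was 1.34 over the members and 0.00 over all genes tested (-0.003). By role, 17 of 28 ligands, 12 of 17 signalling receptors and 1 of 4 atypical receptors were upregulated, and both downregulated members were CC ligands. All 17 signalling receptors had a positive fold change. Among them Ccr3, Ccr4, Ccr6 and Ccr8 reached the count minimum only with the KO livers, which favours a positive sign. Without KO 1 and MCS control 3, a setting chosen after the data were seen, 35 members were up and 3 down, including each of the 30 and both of the 2.

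**Figure D1:**
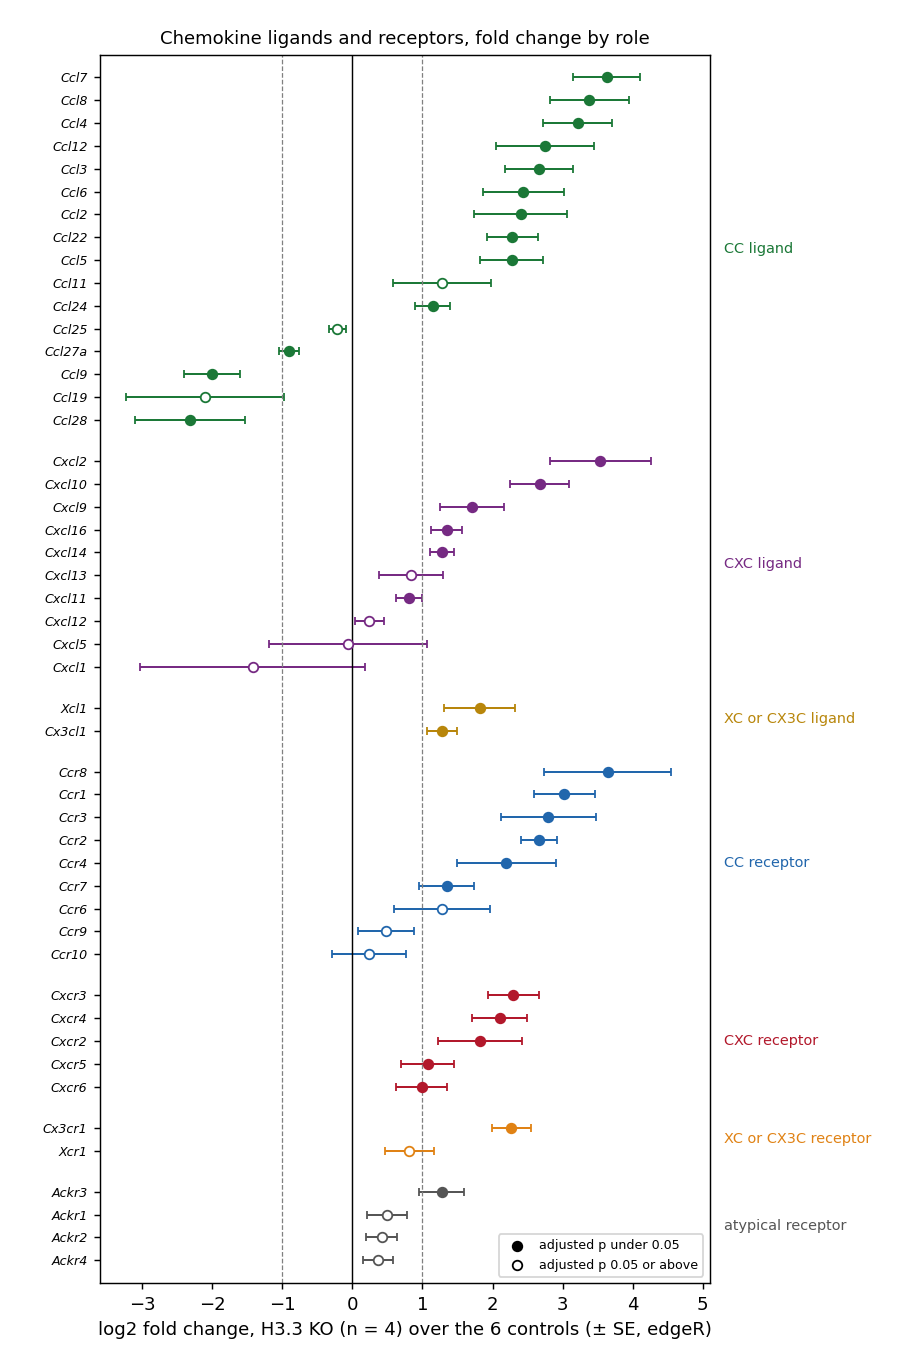
Log2 fold change (± SE, edgeR) of each member shown in the 4 H3.3 KO livers over the 6 controls, grouped by role, with dashed lines at a log2 fold change of 1 in either direction. Filled points have an adjusted p under 0.05, and the points to the left of the lower line with a filled symbol are Ccl9 and Ccl28.

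The KO libraries did not share the change evenly. For 17 of the 49 members every KO library lay above every control (12.5% of all genes tested did so), and for 2 of them every KO library lay below (12.0% of all genes). KO 2, KO 3 and KO 4 were all above every control for 28 of the 30 upregulated members. The 30 were called from these same values, so such separation partly follows from the call. No share over all genes was computed for it or for the ranks that follow. KO 2 was the highest library for 17 of the 30 and KO 4 for 10, while KO 1 was below the control mean for 4.

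**Figure D2:**
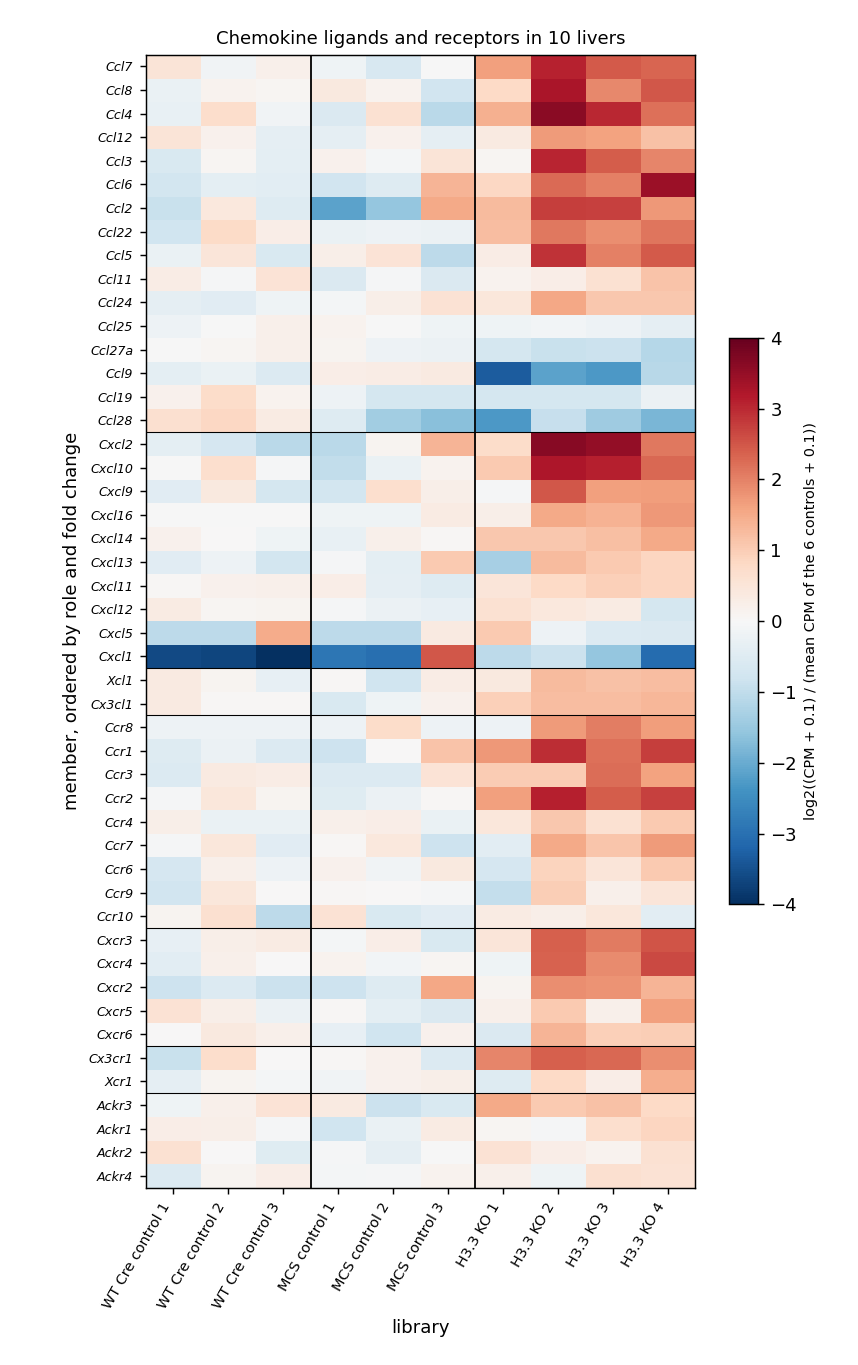
Each row is a member that is reported by name and each column a library, coloured by log2 of (CPM + 0.1) over (mean CPM of the 6 controls + 0.1), with members ordered by role and fold change. Columns KO 2, 3 and 4 are red over most rows, KO 1 is paler, and the Cxcl1 row is dark blue in 5 controls because MCS control 3, at 209 CPM, sets the control mean.

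The monocyte axis held the member with the smallest p. In bulk liver, more or fewer cells of a type and more or less RNA per cell cannot be told apart. Ccr2, the receptor that brings inflammatory monocytes into tissue (chromosome 9, positions 124101950 to 124113557, mm10), stood at 0.936 to 1.86 CPM in the controls with a median of 1.34, and at 4.37, 12.4, 7.67 and 9.52 CPM in KO 1 to 4. No KO library overlapped the controls, and the log2 fold change was 2.66 ± 0.262 (SE, adjusted p = 1.27e-05). Ccl2, the main Ccr2 ligand, rose from 1.23 ± 1.31 (SD, n = 6) to 6.28 ± 2.97 CPM (SD, n = 4), a log2 fold change of 2.40 (adjusted p = 0.0184 by edgeR). MCS control 3 was the highest control for Ccl2 at 3.69 CPM, above KO 1 at 3.13 CPM, and the log2 fold change was 3.08 without MCS control 3 and 3.297 without both libraries. Ccl7, another Ccr2 ligand, had 0 to 3 counts in each control and 6, 31, 18 and 18 counts in KO 1 to 4 (adjusted p = 0.000101). Ccl12, which also binds Ccr2, had 0 to 2 counts in the controls and 1, 8, 7 and 5 in the KO livers (adjusted p = 0.00765). Ccl7 and Ccl12 reached the count minimum only with the KO livers, where they were high, so their calls rest on the same reads that admitted them.

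The 5 genes Ccl2, Ccl7, Ccl11, Ccl12 and Ccl8 lie in 1 run on chromosome 11 (82035571 to 82116799). Ccl8, a ligand of Ccr8 in mouse, had 0 to 3 counts in the controls and 3, 39, 13 and 22 in the KO livers (adjusted p = 0.000521). Ccl11, an eosinophil attractant between Ccl7 and Ccl12, had 0 to 3 counts in the controls and 1 to 6 in the KO livers and did not pass (log2 fold change 1.28, adjusted p = 0.173). Of this run, Ccl2 and Ccl8 were upregulated among the genes that had 10 or more counts over the controls.

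A second run on chromosome 11 (83525778 to 83664683) holds Ccl5, Ccl9, Ccl6, Ccl3 and Ccl4, and here neighbours moved in opposite directions. Ccl9, a Ccr1 ligand also called MIP-1 gamma, ranked 3 of the 49 members per exon length in the controls, at 18.3 CPM per kb. It stood at 38.0 to 71.6 CPM in the controls with a median of 56.8, and at 5.47, 12.6, 11.1 and 25.9 CPM in KO 1 to 4. Every KO library was below every control, and the log2 fold change was -2.001 ± 0.399 (SE, adjusted p = 0.00370 by edgeR). Ccl6, the next gene and another Ccr1 ligand, stood at 4.92 to 21.9 CPM in the controls with a median of 6.08, and at 14.9, 40.4, 34.6 and 90.4 CPM in KO 1 to 4. KO 1 lay below MCS control 3, the highest control, and the other KO libraries lay above it. Its log2 fold change was 2.44 ± 0.584 (SE, adjusted p = 0.0108), and 3.27 without MCS control 3 and KO 1. Per exon length, Ccl9 fell from rank 3 to rank 9 of the 49 members while Ccl6 went from rank 5 to rank 2.

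Ccl3, Ccl4 and Ccl5 are inflammatory CC ligands made by macrophages and T cells. Ccl4 stood at 0.0559 to 0.434 CPM in the controls with a median of 0.183, and at 0.782, 3.91, 2.57 and 1.42 CPM in KO 1 to 4, with no overlap (log2 fold change 3.21, adjusted p = 0.000325). Ccl3 stood at 0.125 to 0.391 CPM with a median of 0.242 in the controls, and at 0.261, 2.73, 1.73 and 1.22 CPM in KO 1 to 4 (log2 fold change 2.66, adjusted p = 0.000990). Ccl5 stood at 0.559 to 1.88 CPM with a median of 1.27, and at 1.56, 10.1, 5.48 and 7.34 CPM in KO 1 to 4 (log2 fold change 2.27, adjusted p = 0.00246). For Ccl3 and Ccl5 KO 1 was inside the control range and the other KO libraries were above it.

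Ccr1, which answers to Ccl3, Ccl5, Ccl6, Ccl7 and Ccl9, stood at 0.0814 to 0.615 CPM with a median of 0.149, and at 0.977, 2.41, 1.39 and 2.10 CPM in the KO livers, without overlap (log2 fold change 3.02, adjusted p = 0.000185, and 3.74 without KO 1 and MCS control 3). Ccr3, the eosinophil receptor, had 0 to 2 counts in the controls and 3, 5, 14 and 9 in the KO livers, or 0.195, 0.198, 0.590 and 0.344 CPM (adjusted p = 0.00584). Both genes and Ccr2 sit in 1 stretch of chromosome 9 (123962124 to 124113557). Of the receptor genes just before them on that chromosome, Ccr9, Cxcr6 and Xcr1, none had a log2 fold change over 1 with an adjusted p under 0.05.

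**Figure D3:**
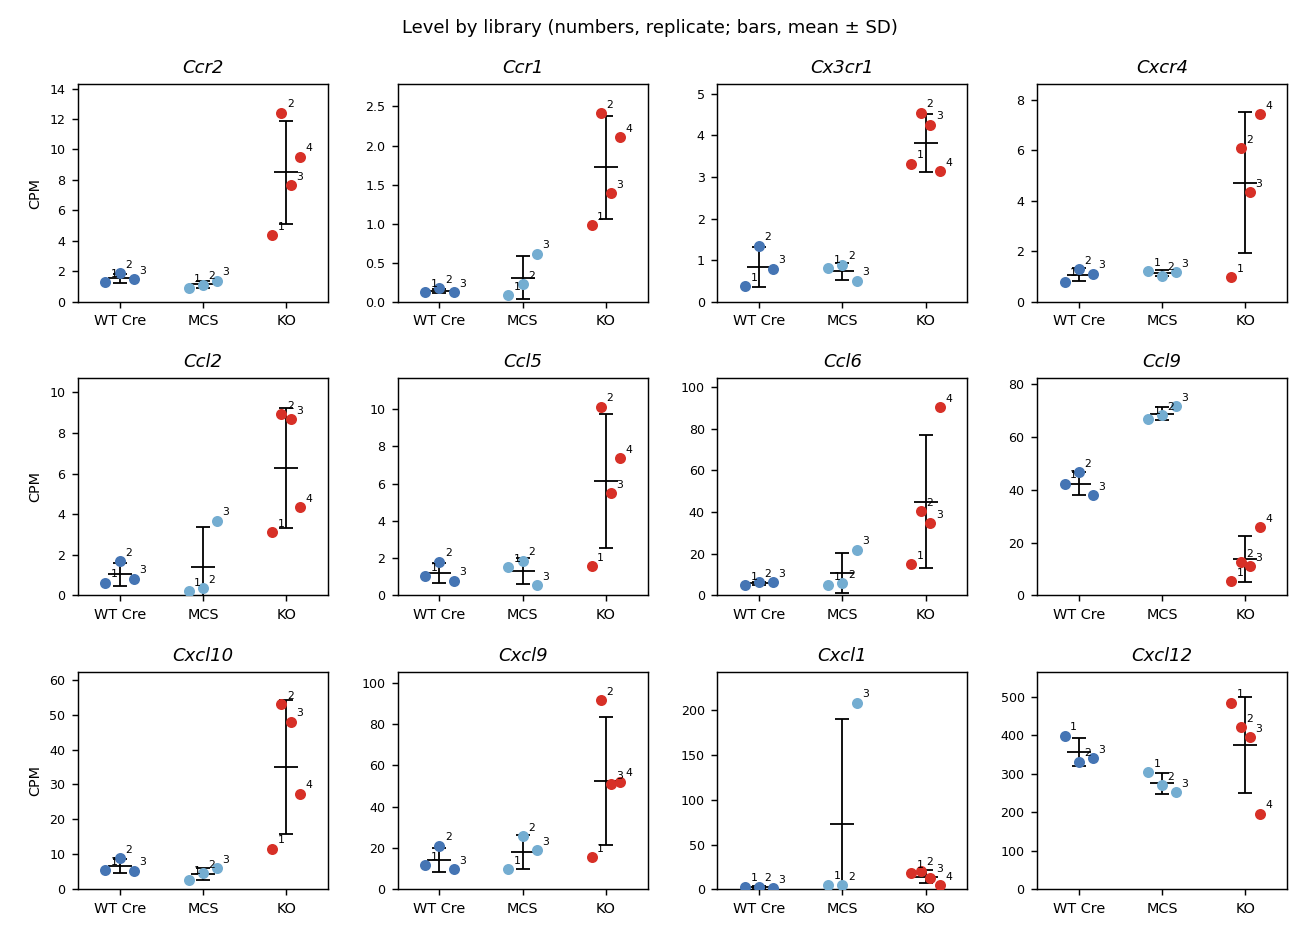
CPM of 12 members in each library by group, with replicate numbers beside the points and mean ± SD as bars (lower ends end at 0), each panel on its own axis from 0. KO 2, 3 and 4 lie above all controls in every panel but those of Ccl9, where all KO livers lie below the controls, Cxcl1, where MCS control 3 stands at 209 CPM, and Cxcl12, where the groups overlap.

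The interferon-inducible ligands and their receptor rose together. Cxcr3, carried by activated T and NK cells, stood at 0.224 to 0.516 CPM in the controls with a median of 0.422, and at 0.586, 2.49, 1.98 and 2.71 CPM in KO 1 to 4 (log2 fold change 2.30, adjusted p = 0.000370). Cxcl10 stood at 2.73 to 8.89 CPM with a median of 5.39, and at 11.6, 52.9, 48.0 and 27.4 CPM in KO 1 to 4 (log2 fold change 2.67 ± 0.422, SE, adjusted p = 0.00105). Neither gene overlapped between groups. Cxcl9, the neighbour of Cxcl10 on chromosome 5, rose from 16.1 ± 6.72 (SD, n = 6) to 52.5 ± 31.0 CPM (SD, n = 4), with KO 1 at 15.6 CPM inside the control range (log2 fold change 1.71, adjusted p = 0.0174, and 2.01 without KO 1). Cxcl11, next in line and annotated as a polymorphic pseudogene, passed with a log2 fold change of 0.80 (adjusted p = 0.00418), under the fold needed to be called a DEG. The exons of Cxcl10 overlap Art3 and those of Cxcl11 overlap Gm2673, both on the other strand.

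Among the ligands of Cxcr2, the neutrophil receptor, only Cxcl2 passed with all libraries included. Cxcl2 stood at 0.0397 to 0.670 CPM in the controls with a median of 0.106, and at 0.391, 3.64, 3.29 and 1.19 CPM in KO 1 to 4 (log2 fold change 3.54 ± 0.724, SE, adjusted p = 0.00323). Without MCS control 3 the log2 fold change of Cxcl2 was 4.35, and without KO 1 as well 4.67. Cxcl1, the gene just before it, stood at 1.23 to 209 CPM in the controls with a median of 3.78, and at 18.1, 20.6, 12.7 and 4.36 CPM in KO 1 to 4. Of the controls MCS control 3 alone was above 5.01 CPM. The log2 fold change of Cxcl1 was -1.42 (adjusted p = 0.539) with that library and 2.06 (adjusted p = 0.0110) without it, both by edgeR. Cxcl5 was at 0 counts in 4 controls and had 1 to 5 counts in the KO livers (adjusted p = 0.973). Cxcr2 rose from 0.297 ± 0.376 (SD, n = 6) to 0.963 ± 0.463 CPM (SD, n = 4), with MCS control 3 at 1.06 CPM above KO 1 and KO 4 (log2 fold change 1.82, adjusted p = 0.0326). It lost its call under 11 of 20 alternatives, with adjusted p-values up to 0.0904, and without MCS control 3 its log2 fold change was 2.74 (adjusted p = 0.000347), or 2.99 without KO 1 as well.

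Cx3cr1, found on patrolling monocytes and on resident macrophages of many tissues, stood at 0.375 to 1.34 CPM in the controls with a median of 0.804, and at 3.32, 4.55, 4.26 and 3.14 CPM in KO 1 to 4 (log2 fold change 2.27 ± 0.278, SE, adjusted p = 5.88e-05). KO 1 was not set apart for this gene. Cx3cl1, its membrane-anchored ligand, stood at 0.570 to 1.21 CPM with a median of 0.953, and at 1.89, 2.33, 2.32 and 2.45 CPM in KO 1 to 4 (log2 fold change 1.28, adjusted p = 0.000534). Cxcl14, whose receptor is debated and which is paired with none here, stood at 1.38 to 2.01 CPM with a median of 1.76, and at 3.78, 3.80, 4.09 and 5.16 CPM (log2 fold change 1.28, adjusted p = 9.88e-05). All 3 genes separated every KO liver from every control, KO 1 included.

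Cxcl12, the ligand that retains leukocytes and progenitor cells, was the highest member per exon length in both groups (38.7 CPM per kb in the controls, 45.8 in the KO livers). It stood at 252 to 399.6 CPM in the controls with a median of 318, and at 485, 422, 395 and 196 CPM in KO 1 to 4. KO 4 was below every control and KO 1 and KO 2 were above every control, and the log2 fold change was 0.24 ± 0.213 (SE, adjusted p = 0.408). Without KO 4 Cxcl12 passed, at 0.46 (adjusted p = 0.0348). Its receptor Cxcr4 stood at 0.792 to 1.30 CPM with a median of 1.14, and at 0.977, 6.09, 4.34 and 7.42 CPM in KO 1 to 4 (log2 fold change 2.10, adjusted p = 0.00147). KO 1 was inside the control range for Cxcr4 and the other KO livers were above it, and without KO 1 the log2 fold change was 2.43. Ackr3, the atypical Cxcl12 receptor, rose from 0.481 ± 0.210 (SD, n = 6) to 1.203 ± 0.271 CPM (SD, n = 4), a log2 fold change of 1.27 (adjusted p = 0.00704), and was highest in KO 1 at 1.56 CPM.

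Ligands and receptors of eosinophils, dendritic cells and T cell subsets made up most of the rest. Ccl22, made by dendritic cells and macrophages, stood at 0.0833 to 0.434 CPM in the controls with a median of 0.173, and at 0.651, 1.26, 1.05 and 1.30 CPM in KO 1 to 4 (log2 fold change 2.28, adjusted p = 0.000365). Its receptor Ccr4 had 3 counts over the 6 controls and 11 over the 4 KO livers (adjusted p = 0.0279) and lost its call under 6 of 19 alternatives. Ccr8, found on regulatory T cells, had 2 counts over the controls, both in MCS control 2, and 0, 7, 9 and 7 counts in KO 1 to 4 (adjusted p = 0.00698). Fitted fold changes of Ccr4 and Ccr8 rest on those few control reads. Ccl24, an eosinophil attractant, stood at 1.21 to 2.57 CPM with a median of 1.55, and at 2.35, 5.18, 3.67 and 3.67 CPM in KO 1 to 4, KO 1 being inside the control range (log2 fold change 1.15, adjusted p = 0.00311). Cxcl16, a ligand on macrophage and endothelial surfaces, stood at 6.02 to 8.55 CPM with a median of 6.63, and at 7.95, 19.5, 18.03 and 22.8 CPM (log2 fold change 1.34, adjusted p = 0.000654). Its receptor Cxcr6 passed just under the fold limit (log2 fold change 0.99, adjusted p = 0.0466) and lost that pass under 10 of 20 alternatives, with adjusted p-values up to 0.174 (0.0555 without MCS control 3). Without both KO 1 and MCS control 3, Cxcr6 was upregulated (log2 fold change 1.29, adjusted p = 0.00407 by edgeR).

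Ccr7, which guides dendritic cells to lymph nodes, had a log2 fold change of 1.34 (adjusted p = 0.0172), Xcl1, made by NK and CD8 T cells, one of 1.81 (adjusted p = 0.0140, 0 to 3 counts in each control) and Cxcr5, of follicular B and T cells, one of 1.08 (adjusted p = 0.0403). Ccr7 did not pass without KO 2 or without KO 4 (adjusted p = 0.0556 and 0.0626). Cxcr5 lost its call under 11 of 20 alternatives, and without MCS control 3 its adjusted p was 0.0672. Xcr1, the Xcl1 receptor of cross-presenting dendritic cells, did not pass (log2 fold change 0.81, adjusted p = 0.0877), nor did Cxcl13, the Cxcr5 ligand (0.83, adjusted p = 0.180). Both passed without KO 1, with adjusted p-values of 0.0136 and 0.0143, and Cxcl13 also without MCS control 3, its highest control (log2 fold change 1.18, adjusted p = 0.0368). Ccr6, Ccr9 and Ccr10 did not pass, with log2 fold changes of 1.28, 0.47 and 0.23, and without KO 1 Ccr6 did (1.58, adjusted p = 0.0499, from 8 counts over the controls).

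Besides Ccl9, 2 ligands passed in the downward direction. Ccl27a, a skin and epithelial Ccr10 ligand, fell from 6.81 ± 0.834 (SD, n = 6) to 3.64 ± 0.455 CPM (SD, n = 4), with every KO liver below every control (log2 fold change -0.91, adjusted p = 0.000399). Ccl28, the mucosal Ccr10 ligand, fell from 0.392 ± 0.306 to 0.0702 ± 0.0680 CPM (log2 fold change -2.31, adjusted p = 0.0348). It had 13 to 18 counts in the WT Cre controls, 1 to 6 in the MCS controls and 0 to 4 in the KO livers, and lost its call under 11 of 19 alternatives, with an adjusted p of 0.0606 without KO 1. Ccl28 reached the count minimum only with the controls, where it was high, so its call rests on the same reads that admitted it. Ccl25, the gut ligand of Ccr9, had a log2 fold change of -0.21 (adjusted p = 0.188) and its exons overlap Elavl1. Ccl19 was at 0 to 4 counts in each library (adjusted p = 0.168). The exons of Ccl27a overlap Il11ra1 on the other strand, and whether counting used strand is not given in the sources used here. Exons of 11 members overlap another gene. Besides those named above, they include Xcl1 (Gm20743), Cx3cr1 (Gm33858), Cxcl16 (Zmynd15) and Cxcr5 (Bcl9l), which were upregulated, and Ackr4 and Ccr9, which were not.

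Of the atypical receptors besides Ackr3, Ackr1, which carries chemokines across vessel walls, Ackr2, which degrades CC ligands, and Ackr4, which takes up Ccl19, Ccl21 and Ccl25, had log2 fold changes of 0.49, 0.42 and 0.36 and adjusted p-values of 0.201, 0.168 and 0.207. Ackr1 shares exon sequence with Cadm3 on the same strand.

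A list of known ligand and receptor pairs was then read. The list is not complete, as it holds no pair of Ackr1 or Ackr2 and gives Ccr3 only Ccl11 and Ccl24. Of 42 listed pairs 34 had both genes among the members, over 18 receptors and 27 ligands. Both partners were upregulated in 17 pairs, the receptor alone in 9, the ligand alone in 2 and neither in 4. In 1 pair (Ccr1 with Ccl9) the receptor rose and the ligand fell, and in 1 (Ccr10 with Ccl28) the ligand fell and the receptor did not pass. Pairs share genes, so these counts are a description.

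**Figure D4:**
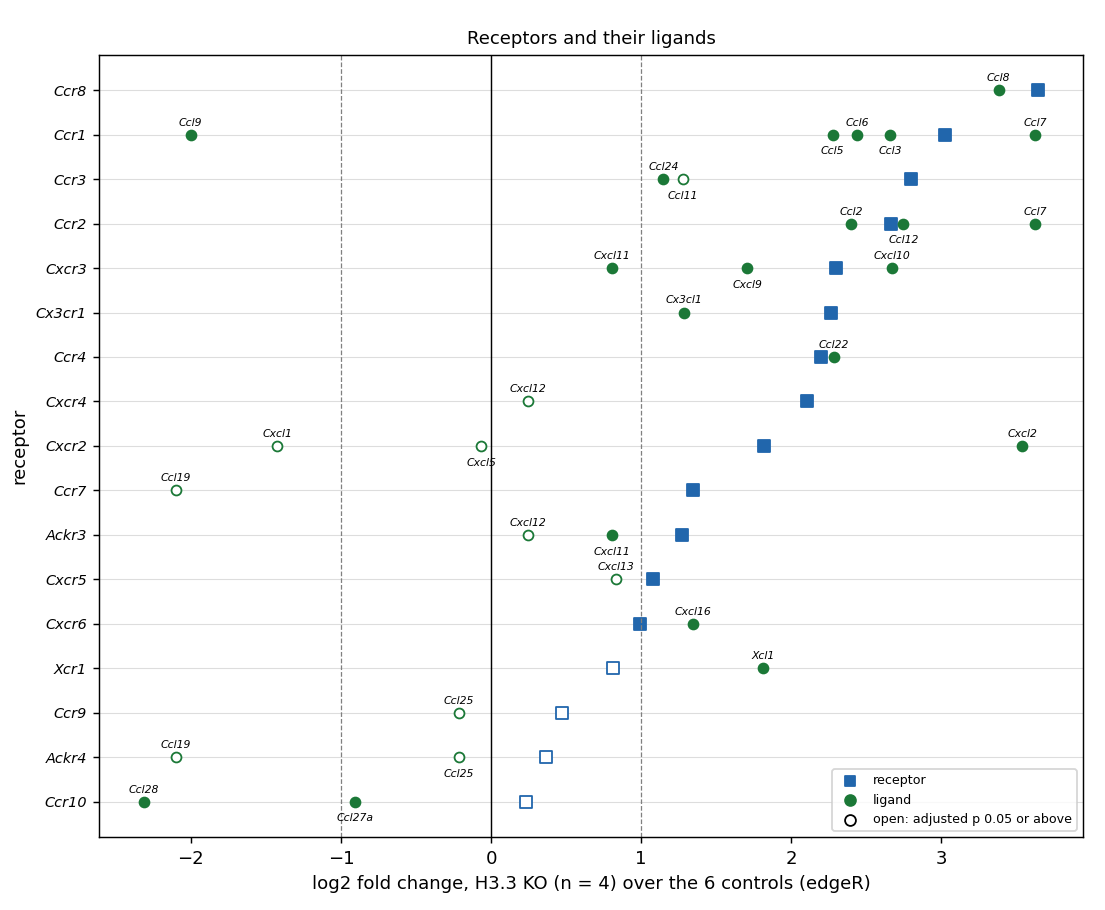
Log2 fold change over the 6 controls of each receptor (squares) and of its listed ligands (circles) on 1 line per receptor, ordered by the receptor. Open symbols have an adjusted p of 0.05 or above. Ccr1 has ligands on both sides of 0, and Cxcr4 at 2.10 stands apart from Cxcl12 at 0.24.

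The KO livers were also compared with each kind of control, in fits that share the KO livers. With the WT Cre controls as the baseline, 23 members rose and 3 fell (10.6% and 5.33% of all genes tested did), and with the MCS controls as the baseline 23 rose and 1 fell (11.9% and 5.54%). Of these, 18 members were up against both, 5 against the WT Cre controls alone (Ccl6, Ccl24, Ccr8, Cxcl9 and Cxcr2) and 5 against the MCS controls alone (Ccl12, Xcl1, Cxcr5, Cxcr6 and Ackr3). Ccl2, Ccr4 and Ccr7 passed only against the 6 controls together. Ccr2 had log2 fold changes of 2.47 and 2.90 against the WT Cre and the MCS controls, Cxcl10 of 2.42 and 2.99, and Ccr1 of 3.60 and 2.58. Ccl9 fell against both, by 1.61 and 2.31 on the log2 scale, with 38.0 to 46.8 CPM in the WT Cre and 66.9 to 71.6 CPM in the MCS controls. Ccl28 fell against the WT Cre controls (log2 fold change -3.01, adjusted p = 0.00244) and did not pass against the MCS controls (-0.79, adjusted p = 0.446). Cxcl1 took opposite signs, at 2.57 against the WT Cre and -2.38 against the MCS controls, and passed in neither (adjusted p = 0.247 and 0.199).

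The test of the WT Cre against the MCS controls, which is the test of whether those comparisons differ, called no member (edgeR, 0.641% of all genes called). At an unadjusted p under 0.05 it gave 3, Ccl28, Ccl19 and Cxcl1, and the lowest adjusted p was 0.113, for Ccl28. DESeq2 and limma voom called none, and on log2(FPKM + 1) Ccl28 had an adjusted p of 0.0456 with a change under the fold limit. Without KO 1 Ccl28 was called, with an adjusted p of 0.0454 (the range over the alternatives was 0.0454 to 0.309).

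The other genes of the pathway were read as lists. Among 29 genes that carry chemokine receptor signals, 16 were upregulated and none downregulated, among them Rac2 (log2 fold change 1.83), a leukocyte GTPase, and Elmo1 (1.49) and Dock2 (2.12), which together activate Rac. Among 10 chemokine-related genes under other symbols, Cmklr1 (1.95), the chemerin receptor, Cd74 (2.02), a receptor of Mif, and Ccrl2 (1.11) were upregulated, and Dpp4 (-1.43), a peptidase that trims chemokines, was downregulated. Of 22 regulators of chemokine genes, 8 were upregulated, led by Atf3 (2.68), Relb (1.67), Irf8 (1.56) and Tnfaip3 (1.47), the last of which is an inhibitor of NF-kB. Of 22 cytokines and receptors tested 10 were upregulated, with Csf1r (1.66), Tgfb1 (1.27), Csf1 (1.61) and Ltb (1.70) first, and of 14 leukocyte adhesion genes 11 were, with Itgb2 (2.35), Selplg (1.89), Itgal (2.01) and Cd44 (1.98) first. Dpp4 was the 1 downregulated gene in these 5 lists. The median log2 fold changes were 1.26, 0.37, 0.48, 1.11 and 1.94 in the order named, over the lists, beside -0.003 over all genes.

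Markers of the leukocytes that carry these receptors were mostly higher in the KO livers. All 9 Kupffer cell markers were upregulated (C1qa, Cd5l, Cd74 and C1qb first), with a summed level of 252 to 469 CPM in the controls, 588 in KO 1 and 997 to 1362 in KO 2 to 4. All 9 monocyte and monocyte-derived macrophage markers were too (Gpnmb, Trem2, Cd9 and Fcgr1 first), at 55.3 to 94.99 CPM, 116 and 195 to 253. The 7 T cell markers were all upregulated, with Cd4 and Cd3e first, and stood at 2.63 to 4.64, 5.15 and 12.8 to 22.8 CPM, and 5 of 6 NK cell markers rose, with Klrk1 and Stat4 first (2.04 to 3.38, 3.32 and 7.33 to 10.8 CPM). Of 5 neutrophil markers tested, 3 rose (Csf3r, S100a9 and S100a8), and the list summed to 3.34 to 13.4 CPM in the controls, 5.93 in KO 1 and 15.9 to 27.9 in KO 2 to 4, and the highest control was MCS control 3. Ly6g and Cxcr1, defining neutrophil genes, had under 10 counts. The part of these cells in the changes of the chemokine genes was not tested.

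Of 6 dendritic cell markers 3 were upregulated (Itgax, Flt3 and Batf3), and the list summed to 10.1 to 11.2 CPM in the controls, 14.5 in KO 1 and 25.03 to 31.0 in KO 2 to 4, and of 5 B cell markers 2 were (Cd22 and Cd79b), the list summing to 0.782 to 7.503, 6.12 and 11.8 to 14 CPM. Of 3 plasma cell markers tested 2 were upregulated. Jchain stood at a mean of 1.18 CPM in the controls and 41.3 in the KO livers and Mzb1 at 0.219 and 2.35, with KO 1 below the control mean for both (0.717 and 0.0651 CPM). The list sum (211 to 303, 424 and 417 to 648 CPM) was nearly all Sdc1, which was not a DEG. Col1a1 and Col1a2 were the 2 of 7 stellate cell markers that were upregulated, from means of 7.04 and 11.2 CPM to 61.9 and 62.1 CPM. The other stellate markers passed in the same direction with a change under the fold limit. All 7 markers summed to 193 to 252, 373 and 409 to 542 CPM, most of it Dcn. None of 4 platelet or 6 endothelial markers was a DEG, Itgb3 and Itga2b having the highest platelet levels and Clec4g and Stab2 the highest endothelial ones, with sums of 5.68 to 12.01, 6.71 and 9.49 to 15.1 CPM for platelets and 161 to 204, 178 and 217 to 321 CPM for endothelium. Sox9 was the 1 upregulated gene of 6 cholangiocyte markers (list sum, mostly Spp1, 40.7 to 61.9, 73.8 and 53.6 to 69.4 CPM). The tissue label was matched by the 8 hepatocyte markers, which summed to 120400 to 163500 CPM in the controls and 87530 to 105500 CPM in the KO livers, with Slc10a1 and Cyp2e1 downregulated. Of the 8 hepatocyte markers 7 passed in the downward direction, most of them under the fold limit, and Cps1 did not pass.

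**Figure D5:**
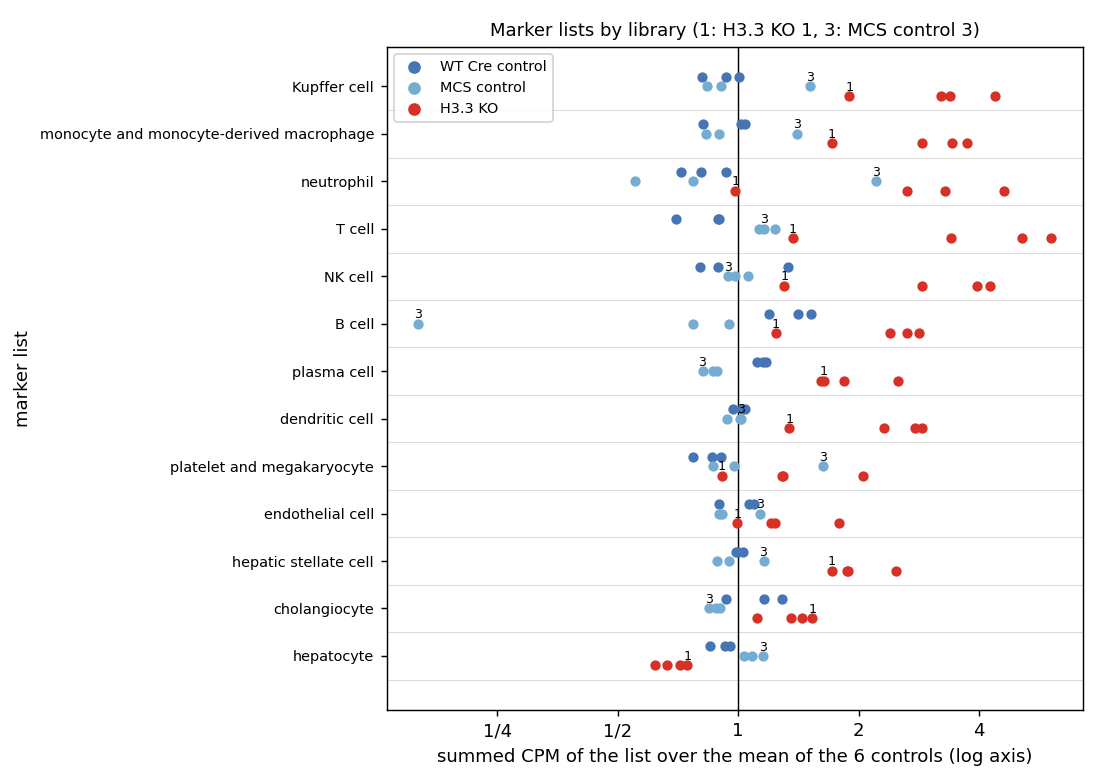
Summed CPM of each marker list in each library over the mean of the 6 controls, on a log axis, with KO 1 and MCS control 3 numbered. The plasma sum is nearly all Sdc1. KO 2 to 4 lie to the right of all controls for the Kupffer, monocyte, neutrophil, T, NK, B, plasma and dendritic lists. The same holds for the stellate and endothelial lists, where KO 1 lies at 1.71 and 0.994. KO 1 lies nearer the controls at 1.90 for Kupffer and 0.983 for neutrophil markers, and the hepatocyte sums of the KO livers lie at 0.619 to 0.746.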

How the data were processed

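Total RNA from whole liver of 10 mice was sequenced as poly(A) RNA-seq. The authors trimmed reads and aligned them to mm10 with STAR, and the processing notes also list HTSeq and Cufflinks. The deposited counts per gene are not normalized, and the deposited FPKM values were used only as an alternative. Exon lengths, positions and overlaps came from GENCODE M21 (GRCm38, 55240 of 55421 identifiers matched without version).

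Counts were scaled by TMM and tested with edgeR 4.0.16 (R 4.3.3, quasi-likelihood, robust) for genes with at least 10 counts over the 10 libraries, with Benjamini-Hochberg adjustment over all genes. KO was set against 6 pooled controls, and 3 groups were fitted for single kinds of control. DEGs passed an adjusted p of 0.05 with more than 1 log2 unit of change. The steps were tested on simulated counts. The simulation gave all genes the same dispersion and changed only well-counted genes, so it did not cover rare or highly variable members. CPM per kb is CPM over exon length. Depth limits rare members to a few counts per library, and the number of mice limits the tests.

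Values in every library are given for the 20 DEG members with the smallest p and the 3 highest members per length. Of other lists up to 4 DEGs with the smallest p are named, or 2 of the highest where there are none. Counts cover all members and list genes, but 1 member and 1 signalling gene are not reported by name here, in the text or the plots. The members and lists were chosen with earlier results of these data known. Alternatives were DESeq2 1.42.0, limma 3.58.1 (voom, and log2(FPKM + 1) or log2(FPKM + 0.1)), other scalings and filters, a replicate block, and leaving out libraries.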

Additional observations from a re-analysis of the deposited data

Results flagged for a closer look

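Of 98 groups examined (49 members in the 4 KO livers and in the 6 controls), 13 held a library set off from the rest by Dixon's test. By chance it flags about 1 in 20 groups of normally distributed values. CPM from a few counts is not so distributed, so the 13 cannot be weighed against that rate. MCS control 3 was the library set off in 7 of the 13. It was at 209 CPM for Cxcl1, where the next control had 5.01, at 21.9 for Ccl6 (next 6.42), 8.55 for Cxcl16 (next 6.67), 2.79 for Cxcl13 (next 1.26), 1.06 for Cxcr2 (next 0.179), 0.670 for Cxcl2 (next 0.223) and 0.615 for Ccr1 (next 0.223). Its neutrophil marker sum was 2.21 times the control mean, the highest of the controls, and its B cell marker sum 0.159 times, the lowest. It was also the highest control for the platelet (1.63), Kupffer (1.51), monocyte (1.40), stellate (1.16), hepatocyte (1.16) and endothelial (1.13) lists. For the plasma cell (0.814) and cholangiocyte (0.846) lists it was the lowest. The part of these cells in its chemokine values was not tested.

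KO 1 was set low for Xcl1 at 0.130 CPM (next 0.295) and high for Cxcl5 at 0.326 CPM (next 0.0791). The other cases were Cxcl5 in WT Cre control 3 (0.476 CPM), Ackr2 in WT Cre control 1 (3.46 CPM), Ccl19 in KO 4 (0.0382 CPM, 1 count) and Ccr8 in MCS control 2 (0.0893 CPM, 2 counts), the last 2 being the sole libraries of their group with a read.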

How the results depend on the processing

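All 35 members that passed against the 6 controls kept their direction under each alternative run, and 28 of them passed under each in which they were tested (filterByExpr kept 35 members). The count of DEGs (32 against the 6 controls) ran from 24 to 38 except on log2(FPKM + 1), a scale that compresses low values, with 13 there, 13 against the WT Cre controls (26) and 11 against the MCS controls (24). Leaving out 1 library gave 27 to 35, 19 to 33 and 18 to 31 DEGs in those comparisons, and 0 to 1 between the controls, the 1 being without KO 1. The replicate block gave 27, 26 and 22 DEGs. With it Ccr7 and Xcl1 missed the threshold (adjusted p = 0.0550 and 0.0621), as did Ccr4, Ccl28, Cxcr5 and Cxcr6, and Cxcl12 passed (0.46, adjusted p = 0.0320). A check of correlations did not decide whether replicate numbers pair the samples. Same-number correlations ran from -0.0673 to 0.171 over 9 pairs, and 6 of 9 libraries correlated best with their own number. Library size alone shifted the median of all genes by 0.17 (log2) and gave 33 DEGs.

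Directions that turned were all of members that did not pass. Cxcl1 became 1.08 with voom, 0.88 and 1.15 on log2(FPKM + 1) and log2(FPKM + 0.1), 1.24 with the block, 2.06 without MCS control 3 (-1.68 at the other end, without WT Cre control 3) and 1.91 without KO 1 as well. Cxcl5 (main -0.07) became 0.087 by library size, 0.14 with DESeq2, 0.94 with voom, 0.009 and 0.11 on the FPKM scales, 0.61 with the block and -0.96 to 1.74 leaving out single libraries, above 0 in 5 of 10 cases. Ccl19 became 0.53 and 0.96 and Ccl25 0.084 and 0.097 on the FPKM scales, where Ccl19 passed (adjusted p = 0.00448 and 0.00546) and Ccl25 did not. The cause was not tested. Members near 10 counts in all allow no firm level, and 3 mice per kind of control limit those comparisons.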
